A study of Apis mellifera carnica with 38 samples.

Results

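Innexin shaking-B (*LOC413472*, NCBI gene identifier ‘413472’) is the honey bee gene named after the *shaking-B* gene of Drosophila, and it was followed here across both tissues and all treatments. It is 1 of 12332 genes in the counts, and it was chosen by its brain expression in earlier comparisons of the injected queens. Its brain levels are therefore given as a description without a test, and tests are given for the fat body and for the brain against the fat body of virgin queens. In the Amel_HAv3.1 annotation of RefSeq it is a protein-coding gene on chromosome 6, from 16708962 to 16731979, with 2 transcripts.

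Innexins are the proteins that form gap junctions in invertebrates, where channels join the insides of neighbouring cells and let ions and small molecules pass. In Drosophila, *shaking-B* is known for the electrical synapses of the giant fibre escape circuit, which carry signals between neurons without a transmitter. Innexins also couple cells outside the nervous system, so the gene is not a marker of neurons.

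Bulk RNA was sequenced from the brains and the abdominal fat bodies of *Apis mellifera carnica* queens, to compare the effects of seminal fluid and of whole semen on gene expression. The queens were virgin queens left untreated (V), or virgin queens injected into the body cavity with Hayes solution (HS), which is a saline used as the diluent, with seminal fluid (SF) or with semen (SE). The 38 libraries came from 18 brains (5 V, 5 HS, 3 SF and 5 SE) and 20 fat bodies (5 of each treatment), and 18 queens gave both tissues. All queens were reared from larvae of 1 source colony, and none was mated, so the treated groups model an injection rather than a mating. Fat body samples were eviscerated abdominal cuticles with the fat body attached.

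Each brain library held between 8699477 and 25753740 reads on genes, and each fat body library between 4832119 and 29963718. Scaled by library size, the summed level of 5 matched neuron markers was 972 to 1319 CPM, the reads of a gene per fixed number of counted reads, in brains and 135 to 194 CPM in fat bodies. The summed level of 5 matched fat body genes, mostly the yolk protein gene *Vg*, was 386 to 13083 CPM in brains and 13169 to 97537 CPM in fat bodies. Thus each sum was higher in every library of its own tissue, although the ranges of the fat body sum nearly met. Among the 5 fat body genes, *Hex110* had the higher median in brains (17.2 against 8.68 CPM). The brains also held a variable amount of *Vg* RNA. The unaligned share, the percent of a library's reads with no alignment to the bee genome, set the libraries apart. The study reported many reads of Deformed Wing Virus in many brain and fat body libraries, and the viral part of this share was not tested. The unaligned share was 4.05 to 6.08% in 5 brains (3 V, 1 SF and 1 SE) and 22.1 to 53.6% in the other 13. In fat bodies it was 3.64 to 5.13% in the 5 V libraries and 49.3 to 71.6% in the 15 libraries of injected queens, so that injection and a high unaligned share cannot be told apart in that tissue.

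In brains, *LOC413472* was low in every HS queen and fell into a high and a low range within each of the other 3 treatments. Levels are given as CPM after scaling by the trimmed mean of M-values (TMM) within a tissue. The HS brains H51, H53, H73, H74 and H75 had 3.79, 4.30, 4.97, 3.59 and 4.77 CPM, which came from 33 to 74 reads. The SE brains S24, S27, S29, S38 and S83 had 12.5, 15.8, 18.5, 11.8 and 5.47 CPM, from 142 to 288 reads. No SE brain overlapped the HS brains, although S83 lay just above them. The SF brains SP1, SP16 and SP76 had 18.0, 3.12 and 21.7 CPM, from 57 to 311 reads. SP16 was the lowest of all 18 brains, whereas SP76 was nearly the highest.

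The untreated virgin brains were split in the same way. C20 and C49 had 21.8 and 18.0 CPM, and C64, C68 and C77 had 4.14, 4.29 and 7.25 CPM. The first pair lay close to SP1 and SP76, and C64 and C68 lay within the range of the HS brains. The low HS level was therefore also the level of some queens that had received no injection.

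The mean brain level was 14.3 ± 9.82 CPM in SF queens (SD, n = 3), 12.8 ± 4.90 in SE queens (SD, n = 5), 11.1 ± 8.25 in V queens (SD, n = 5) and 4.28 ± 0.599 in HS queens (SD, n = 5). The means of the first 3 differed by less than their SDs. Over all 18 brains the fitted log2 fold change was 1.72 (standard error 0.585) for SF against HS, 1.57 (standard error 0.527) for SE against HS and -1.36 (standard error 0.527) for HS against V. Between the other groups it was -0.15 (standard error 0.571) for SE against SF, 0.36 (standard error 0.570) for SF against V and 0.21 (standard error 0.496) for SE against V. These comparisons share their libraries, and those of the injected queens were used in choosing the gene. Over all genes, the same fit called 0.0221% of 9057 genes for SE against HS and 0% for each of the other 5 comparisons. In bulk brain RNA, fewer cells of an expressing type and less RNA per cell cannot be told apart.

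**Figure D1:**
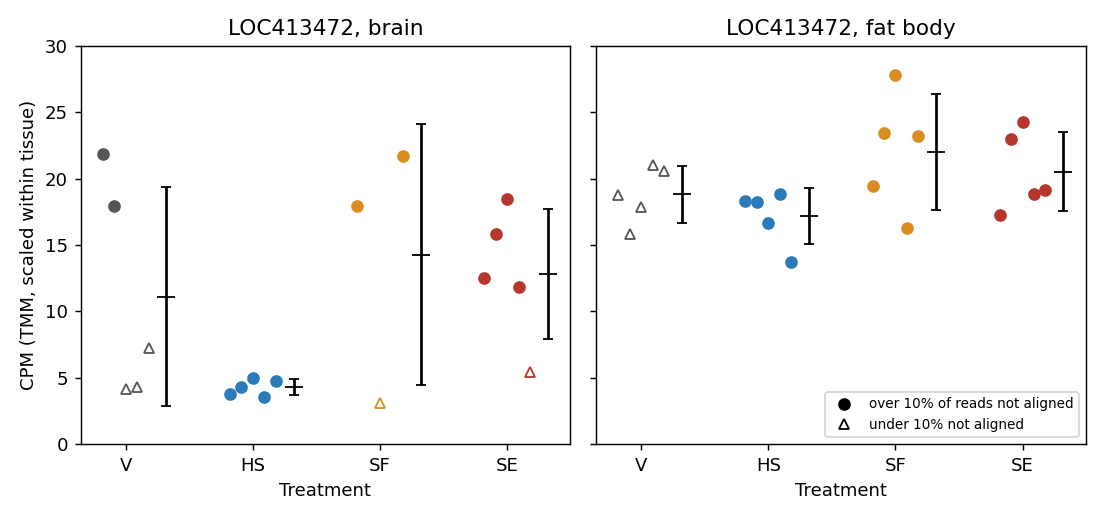
*LOC413472* in each library, as CPM on the vertical axis by treatment, in brains and in fat bodies. Filled circles are libraries with over 10% of their reads unaligned, open triangles those under 10%, and the black bars are the mean and SD of each treatment. HS brains lie between 3.59 and 4.97 CPM, other brains reach 21.8 CPM, and the fat bodies of all 4 treatments overlap.

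The brain levels followed the unaligned share in V, SF and SE queens, but not in HS queens. Among libraries with over 10% of reads not aligned, V brains averaged 19.9 ± 2.73 CPM (SD, n = 2), SF brains averaged 19.8 ± 2.63 CPM (SD, n = 2) and SE brains averaged 14.7 ± 3.08 CPM (SD, n = 4). Among libraries under 10% it was 5.23 ± 1.75 CPM in V brains (SD, n = 3), and the single SF and SE libraries had 3.12 and 5.47 CPM. All 5 HS brains were over 10%, at 22.1 to 53.6% not aligned, and yet their level was 3.59 to 4.97 CPM. The part of the unaligned share in these levels was not tested.

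**Figure D2:**
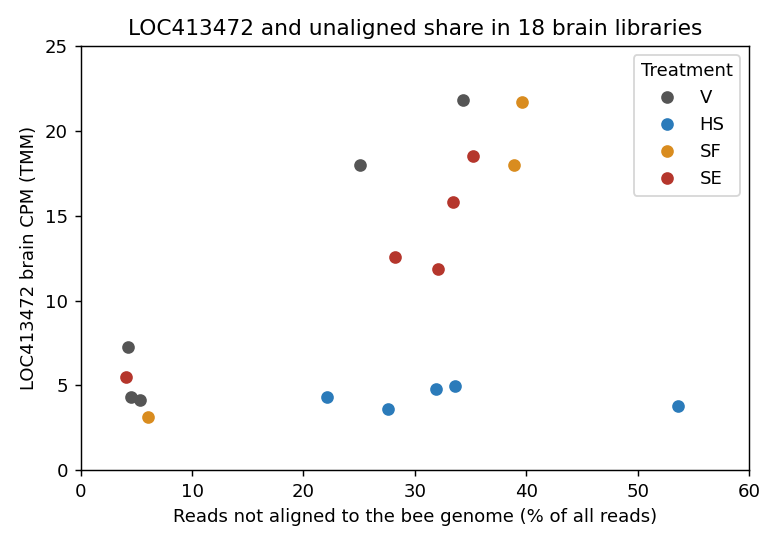
Brain level of *LOC413472* (CPM, vertical axis) against the unaligned share in percent (horizontal axis), with 1 point for each of 18 brain libraries coloured by treatment. The 5 libraries under 10% lie between 3.12 and 7.25 CPM, the 8 V, SF and SE libraries over 10% lie between 11.8 and 21.8 CPM, and the 5 HS libraries over 10% lie between 3.59 and 4.97 CPM.

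The study had spread its samples over 6 sequencing lanes, although not every lane held a brain of each treatment. The part of the lane in the brain levels was not tested. On lane 5 the HS brain had 4.77 CPM, the SE brain 12.5 CPM and the V brain 21.8 CPM. On lane 7 both HS brains, at 3.79 and 4.30 CPM, lay below the SF brain at 18.0 CPM. On lane 8 the HS brain had 3.59 CPM, the SE brain 11.8 CPM and the V brain 4.29 CPM. Lane 3 held an HS, an SE and a V brain at 4.97, 5.47 and 7.25 CPM, of which the latter pair were under 10% not aligned. Lanes 4 and 6 held no HS brain.

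RNA of other tissues varied between brains, and its part in the levels of *LOC413472* was not tested. The summed fat body markers were 386 to 1328 CPM in the 4 SE brains with over 10% not aligned and 8913 to 10057 CPM in the corresponding pair of SF brains, and they were 1160 to 8562 CPM in HS brains. The summed level of 6 matched muscle genes, of which *TpnT* and *TpnCIIb* had medians of 0, was 18.6 to 57.3 CPM in those SE brains, 126 to 702 CPM in those SF brains and 24.05 to 322 CPM in HS brains. The ranges of both sums overlapped between those SE brains and the HS brains. The summed neuron markers were 1075 to 1206 CPM in those SE brains, 972 to 1043 CPM in those SF brains and 1126 to 1307 CPM in HS brains. Of the blood cell markers only *PPO*, the prophenoloxidase gene, was matched, at 28.1 to 73.7 CPM in those SE brains, 76.9 to 111 CPM in those SF brains and 46.3 to 83.5 CPM in HS brains. The 4 eye pigment genes, of which *Blop* had a median of 0, summed to 102 to 794 CPM over all brains, and 5 royal jelly protein genes of head glands to 2.16 to 383 CPM. Neither of the glia markers was matched. In V brains, C20 and C49 had 280 to 287 CPM of the muscle genes, and the other V brains had 95.8 to 158 CPM. For *PPO* these ranges were 151 to 173 CPM and 85.5 to 123 CPM. The fat body markers were lower in C20 and C49, at 2169 to 4580 CPM against 6922 to 13083 CPM. The neuron markers were 1058 to 1161 CPM in C20 and C49 and 1166 to 1220 CPM in the other V brains.

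In fat bodies, the levels of *LOC413472* overlapped between all 4 treatments, and no difference passed the adjusted threshold. The V fat bodies C20, C49, C64, C68 and C77 had 18.8, 15.8, 17.8, 21.0 and 20.6 CPM, and the HS fat bodies H51, H53, H73, H74 and H75 had 18.3, 18.3, 16.7, 18.9 and 13.7 CPM. The SF fat bodies SP1, SP16, SP35, SP76 and SP79 had 19.4, 23.5, 27.8, 16.3 and 23.2 CPM, and the SE fat bodies S24, S27, S29, S38 and S83 had 17.3, 23.0, 24.3, 18.8 and 19.2 CPM. The groups overlapped, and the highest levels were found in SF and SE queens. C20 and C49, with the high virgin brains, were within or below the range of the other virgin fat bodies.

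The mean fat body level was 22.0 ± 4.36 CPM in SF, 20.5 ± 2.98 in SE, 18.8 ± 2.12 in V and 17.2 ± 2.103 in HS queens (SD, n = 5 each). Neighbours in this order differed by less than their SDs. With edgeR's quasi-likelihood test and Benjamini-Hochberg adjustment, SF queens had a log2 fold change of 0.36 over HS queens (95% interval 0.07 to 0.65, adjusted p = 0.203), where 1.66% of 8201 genes were called. SE queens had a log2 fold change of 0.26 over HS queens (95% interval -0.04 to 0.55, adjusted p = 0.310 by edgeR), where 3.69% of genes were called. Both differences missed the threshold, and the upper bounds correspond to a 1.57-fold and a 1.46-fold higher level. SE differed from SF queens by -0.10 on the log2 scale (95% interval -0.40 to 0.19, adjusted p = 0.927 by edgeR), where 0% of genes were called. In exact permutation tests of the same levels over libraries, two-sided, the p was 0.0635 for SF against HS, 0.0952 for SE against HS and 0.595 for SE against SF, with 0.143, 0.143 and 0.595 after adjustment over the 3.

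Against virgin queens the fat body differences were likewise small. The log2 fold change was -0.13 for HS (95% interval -0.40 to 0.14, adjusted p = 0.600 by edgeR), where 7.63% of 8403 genes were called. It was 0.23 for SF (95% interval -0.04 to 0.50, adjusted p = 0.194 by edgeR), where 28.1% were called, and 0.13 for SE (95% interval -0.14 to 0.40, adjusted p = 0.474 by edgeR), where 33.4% were called. The gene was thus not called between virgin and injected fat bodies, like most genes in each of these comparisons. Its level overlapped between the libraries under and over 10% not aligned. With the unaligned share as a covariate the HS difference turned to 1.01 (adjusted p = 0.820 by edgeR), that of SF became 1.36 (adjusted p = 0.667) and that of SE 1.33 (adjusted p = 0.811), although that share does not overlap between virgin and injected fat bodies.

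**Figure D3:**
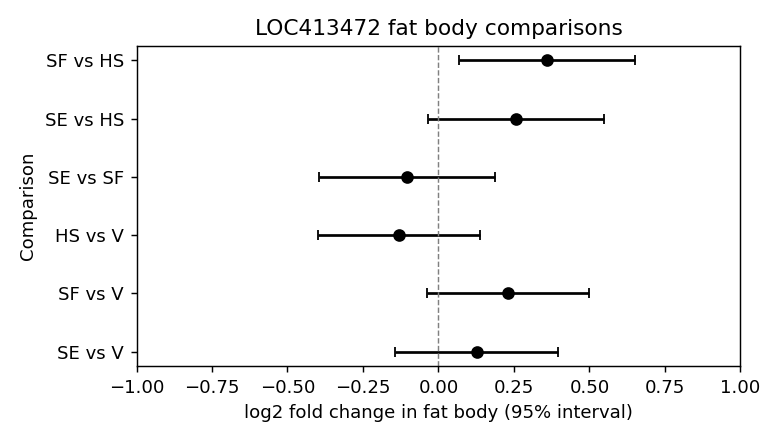
Fitted log2 fold changes of *LOC413472* between fat body groups on the horizontal axis, with 1 row for each of 6 comparisons and bars for the 95% interval. The interval of SF against HS runs from 0.07 to 0.65, the other 5 include 0, and no comparison passed the adjusted threshold.

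In virgin queens, *LOC413472* was lower in the brain than in the fat body. With the 10 virgin libraries scaled together, the brains of C20, C49, C64, C68 and C77 had 18.3, 14.999, 3.46, 3.61 and 6.09 CPM, and their fat bodies had 21.9, 18.5, 21.1, 24.7 and 24.2 CPM. With this scaling the brain was lower in each of the 5 queens, by little in C20 and C49 and by much in the other 3. The mean was 9.29 ± 6.89 CPM in brains and 22.1 ± 2.50 CPM in fat bodies (SD, n = 5 each), with a log2 fold change of -1.27 for the brain against the fat body (standard error 0.429, 95% interval -2.21 to -0.32, adjusted p = 0.0173 by edgeR). Between these tissues 81.3% of 9082 genes were called, so a call in this comparison is usual. The call was lost when only library sizes were scaled, with no TMM (-0.76, adjusted p = 0.118 by edgeR), without C68 (-1.01, adjusted p = 0.0596 by edgeR) and without C77 (-1.11, adjusted p = 0.0691 by edgeR). As a share of reads on genes with no TMM, the brain was the higher in C20 and C49 and the lower in the other 3. C20 had 338 of 15061113 reads in the brain and 392 of 21446350 in the fat body. C49 had 327 of 18830747 and 253 of 16332047. Without C20 and C49, which have high unaligned shares in the brain, the log2 fold change was -2.38 (adjusted p = 3.35e-05 by edgeR), and with only those queens it was -0.28 (adjusted p = 0.221 by edgeR). The fat body samples also held 2428 to 3066 CPM of the muscle genes in virgin queens, against 95.8 to 287 CPM in virgin brains, and their part in the tissue difference was not tested.

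Over all 18 queens with both tissues, with the 38 libraries scaled together, the fat body held more *LOC413472* than the brain in each queen. In C20, C49 and SP76 this direction depended on TMM. As a share of reads on genes alone, the gene was higher in their brains. In SP76 it had 311 of 15549066 reads in the brain and 113 of 6525132 in the fat body. In the other queens the fat body share was still the higher. With the 38 libraries scaled together, the ratio of fat body to brain was 3.84 to 6.99 in the 5 HS queens. It was 1.77 to 2.12 in the 4 SE queens with over 10% of brain reads not aligned and 4.71 in S83. It was 1.44 and 1.01 in SP1 and SP76, and 10.1 in SP16. In virgin queens it was 1.16 and 1.19 in C20 and C49, and 3.77 to 6.53 in the other 3. The ratio was thus 1.01 to 2.12 in the 8 V, SF and SE queens with over 10% of brain reads not aligned and 3.77 to 10.1 in the other 10. Deviations from the treatment mean in the brain and in the fat body had a Pearson r of -0.35 (permutation p = 0.245, two-sided, 18 queens) and a Spearman rho of -0.31 (permutation p = 0.289), with 1 relation tested. Without SP16 and C20, which were farthest from the median in the brain, r was -0.24 (permutation p = 0.381, 16 queens). A relation between the tissues of a queen was not detectable.

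**Figure D4:**
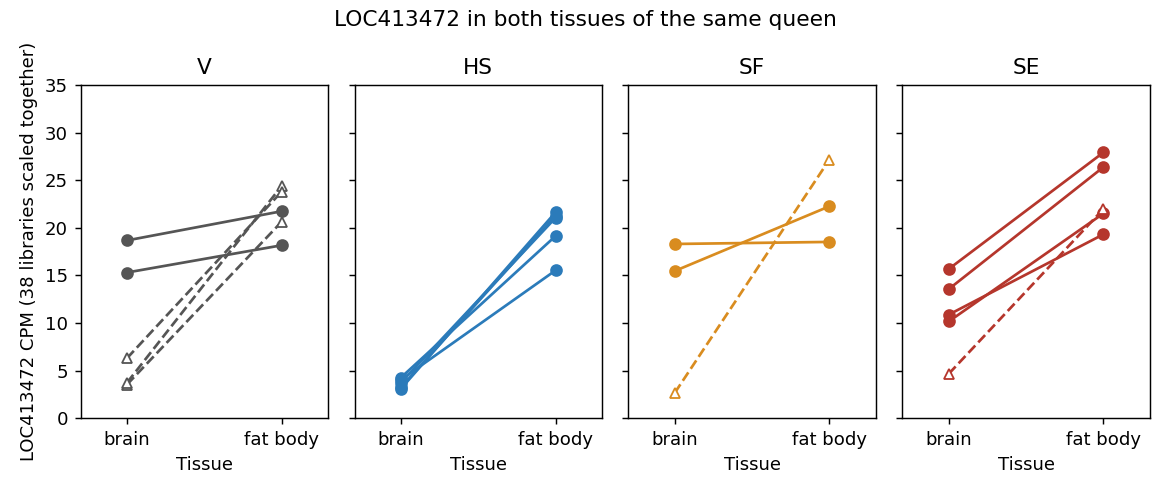
*LOC413472* in the brain and the fat body of each of 18 queens, as CPM with all 38 libraries scaled together, in a panel for each treatment. Each line joins the tissues of 1 queen, and dashed lines with open triangles mark queens with under 10% of brain reads not aligned. All lines rise from brain to fat body, steeply in HS queens and almost level in C20, C49 and SP76.

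The 5 genes whose brain level was most like that of *LOC413472*, by Pearson r of log2(CPM + 0.5) over 18 brains among 9056 other genes, were *LOC411807* (r = 0.955), *LOC411685* (r = 0.941), the G-protein coupled receptor *Mth2-like* (*LOC113219298*, r = 0.937), *LOC113219268* (r = 0.937) and *LOC408570* (r = 0.936). In all, 16 genes had an r of at least 0.9. They lie on chromosomes 12, 7, 16, 15 and 1, so none is a neighbour on chromosome 6. The brains fell into a high and a low range, and r was lower within the ranges. Over the 8 V, SF and SE brains with over 10% not aligned, r was 0.53 to 0.70 for the 5 genes, and over the other 10 brains it was -0.31 to 0.77. The order of likeness also depended on the libraries, since by Spearman's rho 2 of the 5 were again among the closest 5, and over the 13 brains with over 10% not aligned 2 were.

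*Mth2-like* is a receptor of the Methuselah kind. Methuselah receptors are known in Drosophila for effects on life span and stress resistance. In HS brains *Mth2-like* had 0.443 ± 0.472 CPM (SD, n = 5), in the high V brains 15.9 ± 2.74 CPM (SD, n = 2) and in the other V brains 0.167 ± 0.0626 CPM (SD, n = 3). It had 10.2 ± 3.00 CPM in the 4 SE brains with over 10% not aligned (SD, n = 4) and 0.116 CPM in S83, and 9.27 ± 0.401 CPM in SP1 and SP76 (SD, n = 2) and 0.328 CPM in SP16. The gene was picked for its likeness to *LOC413472* over these brains, so that it was high and low in the same libraries follows from the choice. *LOC408570* had 23.2 ± 1.81 CPM in HS brains (SD, n = 5), 68.1 ± 4.28 CPM in C20 and C49 (SD, n = 2) and 19.0 ± 0.747 CPM in the other V brains (SD, n = 3). *LOC113219268* had 7.25 ± 0.855, 56.8 ± 10.2 and 7.01 ± 0.398 CPM in the same 3 sets.

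**Figure D5:**
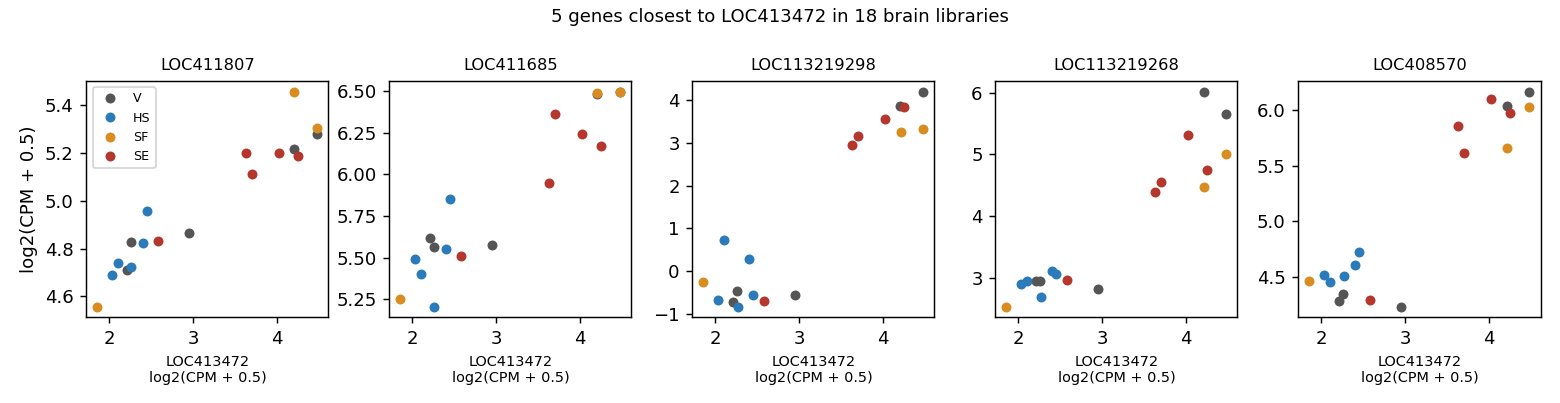
Brain levels of the 5 genes most like *LOC413472*, each in its own panel, as log2(CPM + 0.5) against that of *LOC413472*, with 1 point for each of 18 brains coloured by treatment. In each panel the 8 V, SF and SE brains with over 10% of reads not aligned lie to the upper right of the other 10, and all HS brains lie to the lower left.

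In fat bodies these 5 genes did not keep the likeness, with r from -0.14 to 0.66 to *LOC413472* over 20 libraries. In the same edgeR tests *Mth2-like* rose in HS (log2 fold change 1.44, adjusted p = 0.00664), SF (2.20, adjusted p = 2.58e-05) and SE fat bodies (2.51, adjusted p = 6.67e-06) against V, and in SE against HS fat bodies (1.07, adjusted p = 0.0365). *LOC411807* rose in SF against V fat bodies (0.25, adjusted p = 0.0229 by edgeR). The other 3 genes passed no fat body test, and none of the 5 passed in SF against HS or SE against SF. Among all genes tested, 28.1% were called between SF and V fat bodies and 33.4% between SE and V. The share was 7.63% between HS and V and 3.69% between SE and HS. A single call between virgin queens and SF or SE queens was therefore common. The unaligned share was low in every virgin fat body and high in every injected one. The part of that share in the rises over V was not tested. The gene most like *LOC413472* over the 20 fat bodies was *LOC724832* (r = 0.813, and -0.35 over the brains). It lies on chromosome 6 from 16771523 to 16774829, which is 39544 bases beyond the end of *LOC413472*, and was named after its values were seen.

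The nearest gene on one side of *LOC413472* is *LOC551617*, 2076 bases away, with 172 to 690 reads in brains and an r of 0.62 over the 18 brains. On the other side *LOC725513*, 1590 bases away, had 0 to 6 reads in brains and 0 to 7 in fat bodies. The long noncoding RNA *LOC113218822* (16720420 to 16725250) lies wholly within *LOC413472* and had 0 reads in all 38 libraries. Since reads were counted over whole gene spans, a read in the shared 4831 bases may have counted as ambiguous and been lost to both genes, depending on whether strand was used, which the sources used here do not give.

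Chemical synapses use transmitter receptors in place of gap junctions. Of 24 listed genes of transmitter receptors and synaptic proteins, 19 were matched and all 19 were tested in brains. In virgin queens 18 of them were tested between tissues, where 15 were higher in the brain and 2 in the fat body, beside 3664 higher in the brain and 3719 lower among all 9082 genes, of which 81.3% were called. A call was thus usual between these tissues, and the list had a median log2 fold change of 3.38 against -0.01 over all genes. Most of these synapse genes thus lay opposite to *LOC413472* between the tissues. *Nmdar1*, a glutamate receptor, was higher in the brain by 6.83 and the acetylcholine receptor *nAChRa2* by 6.44 on the log2 scale (adjusted p = 1.76e-11 and 1.17e-10 by edgeR). The acetylcholine receptors *nAChRa9* and *nAChRb2* were lower in the brain, at -6.31 and -5.92 on the log2 scale.

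Between treatments, 0 of the 19 synapse genes were called by edgeR in any of the 6 brain comparisons, in a fit that called only 0 or 2 of all 9057 genes in each. At an unadjusted p under 0.05 there were 2 for SF against HS, 6 for SE against HS, 1 for SE against SF, 1 for HS against V, 0 for SF against V and 5 for SE against V. Among all 9057 genes, 822, 977, 662, 522, 364 and 670 were under that limit, in the same order. The median log2 fold change of the synapse genes was -0.13 for SF against HS and -0.20 for SE against HS, beside 0.01 for all genes in each. Without SP16, the SF brain under 10% not aligned, edgeR called *GluCl*, a glutamate-gated chloride channel, lower in SF (-0.43) and in SE (-0.39) against HS brains, and *Syt1*, the synaptotagmin of synaptic vesicles, lower in SF against HS brains (-0.37). That fit called 365 of 9086 genes for SF against HS and 3 for SE against HS. *GluCl* was also called for SE against HS brains by DESeq2 (-0.39), which called 28 of 9057 genes there and made 1 call in all on the synapse genes, while limma-voom made 0 on them. *GluCl* is among the genes with a change in the study's own brain comparison of these libraries, so its direction here is not independent evidence.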

How the data were processed

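The authors trimmed single-end reads with cutadapt, aligned them to Amel_HAv3.1 with HISAT2 and deposited raw HTSeq counts over whole gene spans, not normalized. The same column holds reads not aligned, from which the unaligned share was computed. The study also aligned reads to Deformed Wing Virus, the most abundant virus in its samples. It left samples with very few such reads out of its final comparisons, namely most virgin samples, an SF brain and an SE brain. The virus values were not used here. Samples were grouped by their labels. No strand was given in the sources used here.

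The comparisons were fitted to the counts with edgeR 4.0.16 under R 4.3.3 (filterByExpr at a minimum count of 20, TMM, quasi-likelihood test, Benjamini-Hochberg threshold 0.05). The 3 comparisons of injected fat bodies used 15 libraries, those with virgin queens 20, and brains 18. Alternatives were DESeq2 1.42.0, limma-voom (limma 3.58.1), other scaling and filters, lane or unaligned share as covariates, and each library left out. Named were *LOC413472*, its neighbours, the 5 genes closest in brain and the synapse list. The gene, lists and tests were chosen with earlier results of these data known. In simulated data, edgeR recovered 90.5% of 200 genes changed 2-fold in fat bodies (SF against HS, 8163 genes), and it also called 16 unchanged genes. Smaller changes, such as those fitted for *LOC413472* in fat bodies, were not simulated.

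Virgin samples were paired by queen, since both tissues came from 1 animal. The main test between tissues did not use this pairing, and the queen as a block was an alternative. Deviations of the tissues of a queen from the tissue means, over all genes, had correlations of -0.10 to 0.15. No other innexin could be named from the annotation used here, so the family was not analysed, and replicate p-values measure the spread between queens.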

Additional observations from a re-analysis of the deposited data

Results flagged for a closer look

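In 42 groups of 5 libraries, of *LOC413472* and the 5 genes closest to it, 2 had a library far from the others, where chance gives about 1 in 20. In SE brains *LOC411807* had 27.96 CPM in S83, below 34.1 to 36.3 CPM in the other 4, and S83 is the SE brain with under 10% of reads not aligned. In SE fat bodies *LOC113219268* had 81.1 CPM in S24, above 46.6 to 52.0 CPM in the other 4. No group of *LOC413472* itself held such a library.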

How the results depend on the processing

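In the fat body, no alternative called *LOC413472* in any of the 6 comparisons, and all kept their direction apart from HS against V with the unaligned share as a covariate (1.01 on the log2 scale; 1.36 for SF and 1.33 for SE against V). For SF against HS the value ranged from 0.25 to 0.45 and the adjusted p from 0.0989 to 0.621. The virgin brain stayed below the fat body in 14 of 14 alternatives. The call was lost with library sizes alone (-0.76, adjusted p = 0.118 by edgeR) and with only C20 and C49 (-0.28). It was also lost without C68 (adjusted p = 0.0596 by edgeR) and without C77 (adjusted p = 0.0691 by edgeR). With 1 queen left out the value ran from -1.66 to -1.01. With the queen as a replicate block it was -1.55 (adjusted p = 0.0135 by edgeR), and the pairing changed no call. The synapse genes had 0 brain calls over 6 comparisons, 1 with DESeq2, 1 with the unaligned share as a covariate, 3 over the 11 brains retained by the study, 4 over the 13 brains with over 10% not aligned (*GluCl* for SF and SE and *Syt1* for SF against HS, *Dop3* for SE against V), and 0 to 3 with 1 library left out, the most without SP16. For SF against HS these fits called 716 of 9030 genes over the 11 brains and 761 of 9042 over the 13. For SE against HS they called 112 and 123 genes, and for SE against V the fit over the 13 called 108. The call with the unaligned share as a covariate was *GluCl* for SE against HS, where 151 of 9057 genes were called. Without brains under 10% not aligned, the V mean moved to 19.9 CPM. Of the closest 5 genes, 1 was again among the closest over those 11 brains and 1 by deviations from treatment means. Alternatives with C20 and C49, with the 13 brains and without brains under 10%, and the permutation tests, were chosen after seeing the data. Counts of 33 to 74 reads limit the precision in HS brains.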
